A study of Mus musculus with 15 samples.

Results

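The comparison described here is that of male mouse left ventricles after TAC with male left ventricles after a sham operation. It uses the 9 male arrays of a series of 15: 6 sham arrays, numbered 4 to 9 in their titles, and 3 TAC arrays, numbered 4 to 6. The members, these 9 arrays, were taken by title, sex and operation, and that rule used no measured value. Earlier results of these data were known when the members and the gene lists were chosen. The series is titled for cardiac hypertrophy under pressure overload, and the comparison asks how the transcript content of the loaded male ventricle differs from that of the unloaded one. In this field TAC commonly stands for transverse aortic constriction, a banding of the aorta that makes the left ventricle pump against a higher pressure, and a sham animal goes through surgery without the band; the labels do not spell the operation out. Strain, age, the time between operation and sampling and any allele or agent are not stated in the labels used here. Nor do the labels tie each array to an animal of its own, so the p-values cover the spread between these samples, which may be technical.

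A ventricle under lasting pressure load grows by enlarging its muscle cells. As background, such growth is known for the return of genes of the fetal heart program, among them the natriuretic peptides and skeletal alpha-actin, for the deposition of collagen and other matrix by fibroblasts, and for a shift of fuel use away from fatty acids. Several of the fetal program genes have compact muscle promoters that serum response factor, TEA-domain, GATA and MEF2 factors are known to bind.

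The promoters of 3 genes are shown because their genes were the stretch and load response genes of muscle that rose in this comparison. Each is the 250 bases before the annotated start of transcription, 5′ to 3′ on the gene's own strand, from RefSeq on GRCm38.p6: Nppa at chr4:148000472-148000721 on the plus strand, Acta1 at chr8:123894776-123895025 on the minus strand and Ankrd1 at chr19:36119845-36120094 on the minus strand. Capitals mark the motifs found.
Nppa: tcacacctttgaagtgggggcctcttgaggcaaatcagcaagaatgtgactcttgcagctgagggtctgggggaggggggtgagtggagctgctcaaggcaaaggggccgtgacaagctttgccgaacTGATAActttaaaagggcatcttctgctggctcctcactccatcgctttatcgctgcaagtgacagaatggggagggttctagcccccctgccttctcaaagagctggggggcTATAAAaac
Acta1: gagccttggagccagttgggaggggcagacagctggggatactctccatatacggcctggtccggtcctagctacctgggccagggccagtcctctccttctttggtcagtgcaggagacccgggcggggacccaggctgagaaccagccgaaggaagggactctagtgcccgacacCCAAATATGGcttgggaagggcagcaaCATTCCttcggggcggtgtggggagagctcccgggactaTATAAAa
Ankrd1: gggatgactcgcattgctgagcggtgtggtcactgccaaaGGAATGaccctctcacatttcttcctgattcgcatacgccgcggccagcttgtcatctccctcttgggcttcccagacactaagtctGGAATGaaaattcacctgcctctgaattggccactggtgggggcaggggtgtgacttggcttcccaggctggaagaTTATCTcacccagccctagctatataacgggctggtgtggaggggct
The motifs searched, on both strands, were 4 in number: the CArG box of serum response factor, the MCAT element of TEA-domain factors (CATTCC), the GATA site (GATA with A or T before it and A or G after it) and the TATA box (TATAAA). The Nppa window held a GATA site 122 to 117 bases before the start and a TATA box 9 to 4 bases before it. The Acta1 window held a CArG box 73 to 64 bases, an MCAT element 46 to 41 bases and a TATA box 7 to 2 bases before the start. The Ankrd1 window held MCAT elements on the opposite strand at 210 to 205 and 123 to 118 bases and a GATA site on the opposite strand at 47 to 42 bases. The CArG pattern, CC and GG around letters A or T, is the same on both strands, so the Acta1 box matched on each. No other matches overlapped. Among 32851 promoter windows of the same length, a CArG box was found in 1.47%, an MCAT element in 12.6%, a GATA site in 26.5% and a TATA box in 12.4%. These matches describe the letters only.

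Each array gave an intensity for 12422 non-control probe sets, the groups of probes that read a transcript, in arbitrary linear units. Array medians lay between 23.7 and 25.8, and between 42.7% and 45.2% of an array's probe sets were below 20, the level to which low values were raised before log2 was taken. The heart muscle markers Myh6, Actc1, Tnnt2, Tnni3 and Mb were bright on all 9 arrays, with Myh6, the adult alpha-myosin heavy chain, at 4529 to 5725. Xist, the RNA of X inactivation, was at or below 3.81 on all 9 arrays, and the Y-linked probe sets were below 20. The ratio of the 3′ to the 5′ probe set of Gapdh, a sign of RNA integrity, was 0.69 to 0.79 in sham and 0.57, 0.69 and 0.83 on the TAC arrays 4, 5 and 6. The same ratio for beta-actin was 0.42 to 0.72 in sham and 0.37, 0.42 and 0.42 with TAC. The part of that difference in the results below was not tested. Because the tissue is a bulk extract, fewer cells of a type and less RNA per cell cannot be told apart.

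In all, 6 named genes and 2 probe sets with no unique symbol were higher in male TAC than in male sham ventricles, and none were called lower. The named genes were the load response genes Nppa, Acta1 and Ankrd1, the matrix genes Postn and Col8a1, and a probe set annotated to Dohh. They rose between 2.01-fold and 6.78-fold. The 8 calls are 0.107% of the 7453 probe sets tested with limma at a Benjamini-Hochberg adjusted p under 0.05. At an unadjusted p under 0.05, 220 probe sets were higher (2.95%) and 252 lower (3.38%), 472 together (6.33%), while that threshold alone would let through 373. The median log2 change of the whole table was -0.01, and 3503 were higher and 3950 lower. A change of over 2-fold was seen in 22 probe sets upward and in 3 downward. Leaving out 1 array changed the count: it was 4 without sham 4, 4 without sham 5, 5 without sham 6 and 3 without TAC 5. Without TAC 6 it was 11, of which 5 were lower. Of the 6 genes, Acta1 and Nppa passed with a floor at the 10th percentile of the values in place of 20, and Acta1 alone passed without a filter on dim probe sets (Nppa, adjusted p = 0.21).

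**Figure D1:**
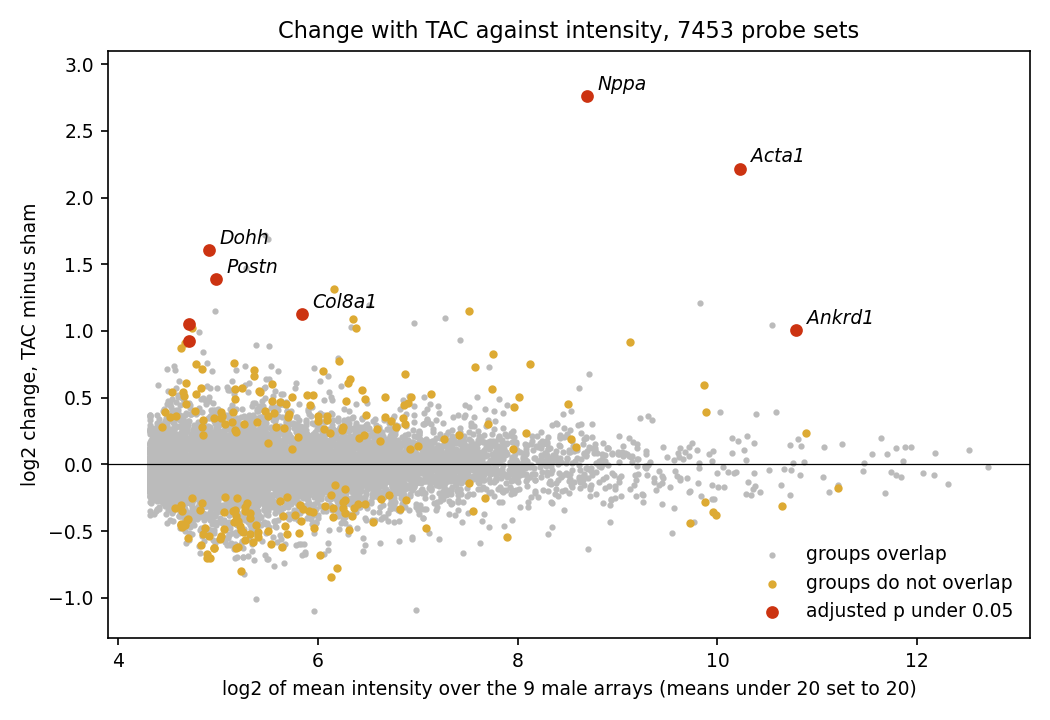
Log2 change with TAC (y axis, TAC minus sham) against the log2 of the mean intensity over the 9 male arrays (x axis) for the 7453 tested probe sets, with the 8 calls in red and probe sets whose groups did not overlap in yellow. All 8 calls lie above 0, and Nppa and Acta1 lie at 2.76 and 2.22, apart from the rest.

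Nppa encodes atrial natriuretic peptide, a hormone that lowers blood pressure and blood volume. It is made in the atria throughout life and in the ventricle mainly before birth and under load. Its intensity was 1045, 2117 and 1257 on TAC arrays 4, 5 and 6, and 111.5 to 307.3 with a median of 217.4 on the 6 sham arrays. No TAC array was near the sham range. Nppa rose 6.78-fold (95% interval 4.32 to 10.6), a log2 change of 2.76 ± 0.30 (SE, limma adjusted p = 0.00135). The means were 219.6 ± 75.6 (SD, n = 6) in sham and 1473 ± 568 (SD, n = 3) with TAC. Its call was kept without any one of the 9 arrays.

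Acta1 encodes skeletal alpha-actin, the actin of the thin filament in skeletal muscle and of the fetal heart. It had the narrowest spread in sham for the size of its change: 633.1 to 814.0 with a median of 696.1, against 2463, 3645 and 4042 on TAC arrays 4, 5 and 6. All TAC arrays were far above all sham arrays. Acta1 rose 4.65-fold (95% interval 3.64 to 5.94), a log2 change of 2.22 ± 0.16 (SE, limma adjusted p = 2.78e-05), and this was the smallest adjusted p of the comparison. The cardiac alpha-actin Actc1, the main actin of the adult heart, had a log2 change of 0.11 ± 0.13 (SE, adjusted p = 0.941).

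Ankrd1 encodes a muscle ankyrin repeat protein that binds titin in the sarcomere and also acts in the nucleus. Its intensity was 2445, 3176 and 2819 with TAC, and 1123 to 1655 with a median of 1474 in sham. All TAC arrays were above all sham arrays. Ankrd1 rose 2.01-fold (95% interval 1.59 to 2.55), a log2 change of 1.01 ± 0.16 (SE, limma adjusted p = 0.0237). The call was lost without sham 4, sham 5, sham 6, TAC 5 or TAC 6 (adjusted p = 0.0611, 0.0621, 0.0592, 0.204 and 0.0833).

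Dohh, annotated as deoxyhypusine hydroxylase, the enzyme that completes hypusine in the translation factor eIF5A, was dim in sham. Its intensity was 58.7, 63.2 and 80.2 with TAC, and 4.01 to 32.7 with a median of 16.9 in sham, where 4 of 6 arrays were below 20. Every TAC array was above every sham array. Dohh rose 3.04-fold on values raised to 20 (95% interval 2.33 to 3.98), by 1.60 ± 0.18 on the log2 scale (SE, limma adjusted p = 0.00135). With the lower floor the log2 change of Dohh was 2.27 and the adjusted p 0.333. The name rests on the platform annotation, and the probe sequence was not used here.

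The 2 called probe sets without a single symbol were equally dim in sham. The probe set 96486_at had a median of 17.4 in sham and 38.2, 58.2 and 36.7 with TAC, a log2 change of 1.05 ± 0.16 (SE, limma adjusted p = 0.0199). The probe set 104716_at had a median of 20.1 in sham and 38.0, 46.2 and 40.1 with TAC, a log2 change of 0.92 ± 0.14 (adjusted p = 0.0214). Neither had overlapping groups, and neither passed with the lower floor.

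**Figure D2:**
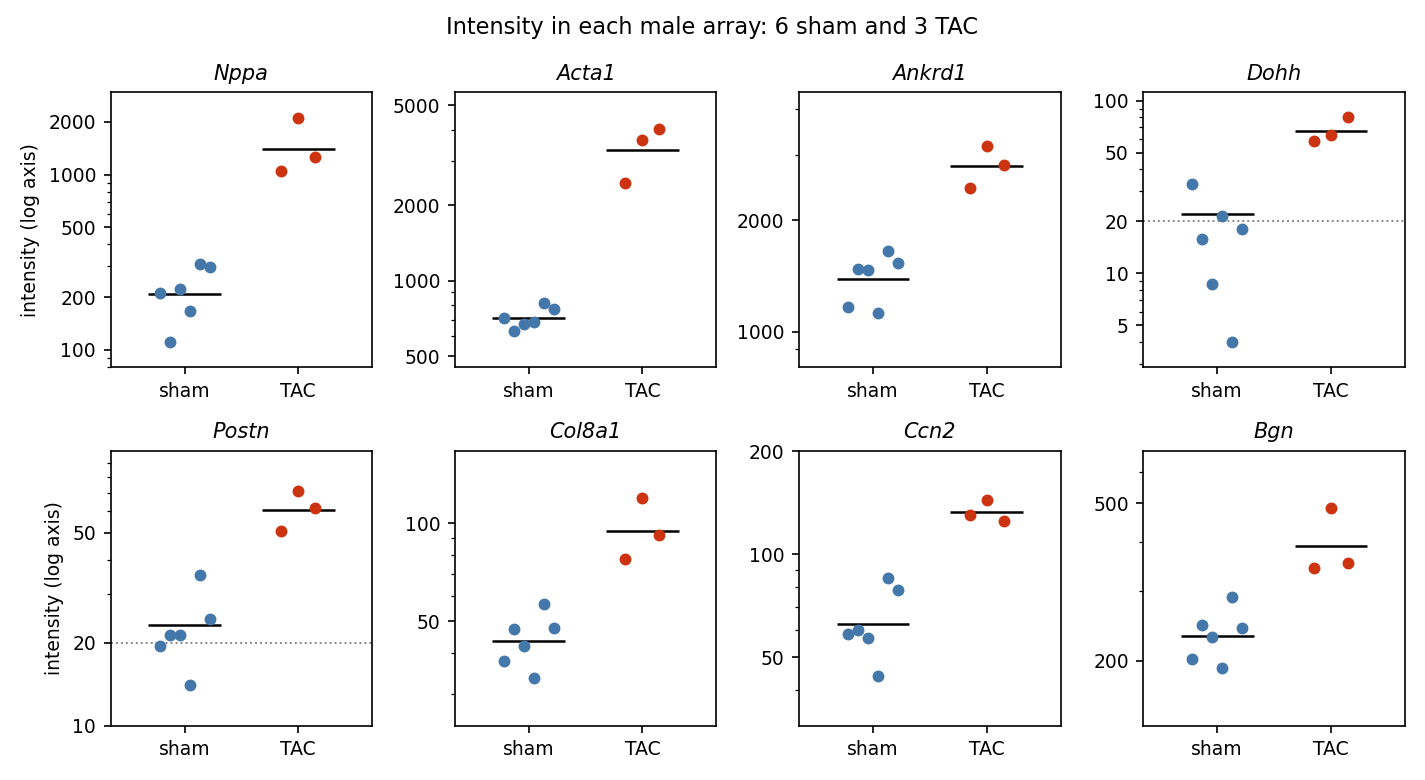
Intensity (y axis, log scale, arbitrary units) of 8 genes on each of the 6 male sham (blue) and 3 male TAC (red) arrays, with bars at the mean of log2 values and a dotted line at 20. In all 8 panels the lowest TAC array lies above the highest sham array; Ccn2 and Bgn did not pass the adjusted p.

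Matrix genes were the second group among the rises. Postn encodes periostin, a matricellular protein that activated fibroblasts secrete. Its intensity was 51.0, 71.1 and 61.8 with TAC, and 14.0 to 35.3 with a median of 21.4 in sham, where 2 of 6 arrays were below 20. The groups did not overlap, and sham 8 was the highest sham array. Postn rose 2.61-fold (95% interval 1.97 to 3.46), by 1.39 ± 0.19 on the log2 scale (SE, limma adjusted p = 0.0091); without TAC 5 the adjusted p was 0.107.

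Col8a1 encodes a chain of type VIII collagen, a short network-forming collagen of vessel walls and remodelled matrix. Its intensity was 77.9, 119.5 and 92.0 with TAC, and 33.5 to 56.7 with a median of 44.6 in sham. It rose 2.18-fold (95% interval 1.66 to 2.87), by 1.13 ± 0.18 on the log2 scale (SE, limma adjusted p = 0.0306). The groups did not overlap, but the call was lost in 6 of the 9 runs that left out 1 array, with an adjusted p of up to 0.261 (without TAC 5; the others were sham 4, 5, 6 and 7 and TAC 6).

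Ccn2 and Bgn, also matrix genes, separated the groups without passing. Ccn2 encodes connective tissue growth factor, a matricellular protein induced by TGF-beta and by stretch. It was at 130.1, 143.8 and 124.9 with TAC and 44.1 to 85.5 in sham, a log2 change of 1.09 ± 0.19 (SE, limma adjusted p = 0.0524). Without sham 8 its adjusted p was 0.0205 and without sham 9 it was 0.0366. Bgn, the small proteoglycan biglycan, was at 343.7, 486.2 and 353.5 with TAC and 191.8 to 289.3 in sham, a log2 change of 0.75 ± 0.16 (adjusted p = 0.21). Both genes separated the groups. The second probe set of Bgn had 0.35 ± 0.18 (adjusted p = 0.845), with overlapping groups.

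Over the list of extracellular matrix genes, 38 of 51 tested members were higher and 13 lower with TAC (74.5% higher, against 47% of all probe sets tested), and the median log2 change was 0.18. Postn and Col8a1 were the 2 that passed. This list and those below were chosen with earlier results of these data known. Their shares and counts are described only and are no test. The TAC values lay above all sham values in 11 of the 51 and below all of them in 1, where 1.61% and 1.34% of all tested probe sets did so. Besides the genes above, they included Mgp, an inhibitor of calcification, with 1.31 ± 0.36 (SE, adjusted p = 0.394), Lum, the proteoglycan lumican, with 0.61 ± 0.16 (adjusted p = 0.374) and Dcn, decorin, with 0.60 ± 0.17 (adjusted p = 0.404). The laminin chain gene Lama5 was the one below, with -0.33 ± 0.13 (adjusted p = 0.721). Col3a1, a fibrillar collagen chain, had 0.57 ± 0.19 (adjusted p = 0.553), with overlapping groups. Col1a2, the alpha-2 chain of type I collagen, had probe sets that disagreed: 0.70 ± 0.17 (adjusted p = 0.298) and -0.07 ± 0.12 (adjusted p = 0.954), and the second was the brighter.

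Fibroblast markers were read beside the matrix genes. Of 16 tested markers 12 were higher and 4 lower, with a median log2 change of 0.23, and none passed. The summed intensity of the 20 markers on the array, untested ones included, did not overlap between the groups. It was 3084 to 3327 on the TAC arrays and 2217 to 2964 on the sham arrays. Dcn alone was at 1143 to 1352 with TAC and 636.0 to 1050 in sham. Of the 16 markers, 8 also stand in the matrix list. Of the 8 that do not, 5 were higher, the median was 0.07, and their sums overlapped, at 899.4 to 1003 with TAC and 733.4 to 1059 in sham. The defining marker Tcf21 was below 20 on all 9 arrays, and Pdgfra lay close to 20. The part of fibroblast content in the matrix values was not tested. Other non-muscle cell types showed smaller medians: 0.06 over 16 endothelial markers, -0.02 over 9 smooth muscle markers and -0.05 over 18 leukocyte and macrophage markers, with none of these called. Kdr, Myh11, Cnn1 and Ptprc, defining markers of those types, were below 20 on all 9 arrays. The median of the endothelial list turned negative and that of the smooth muscle list positive when single arrays were left out.

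**Figure D3:**
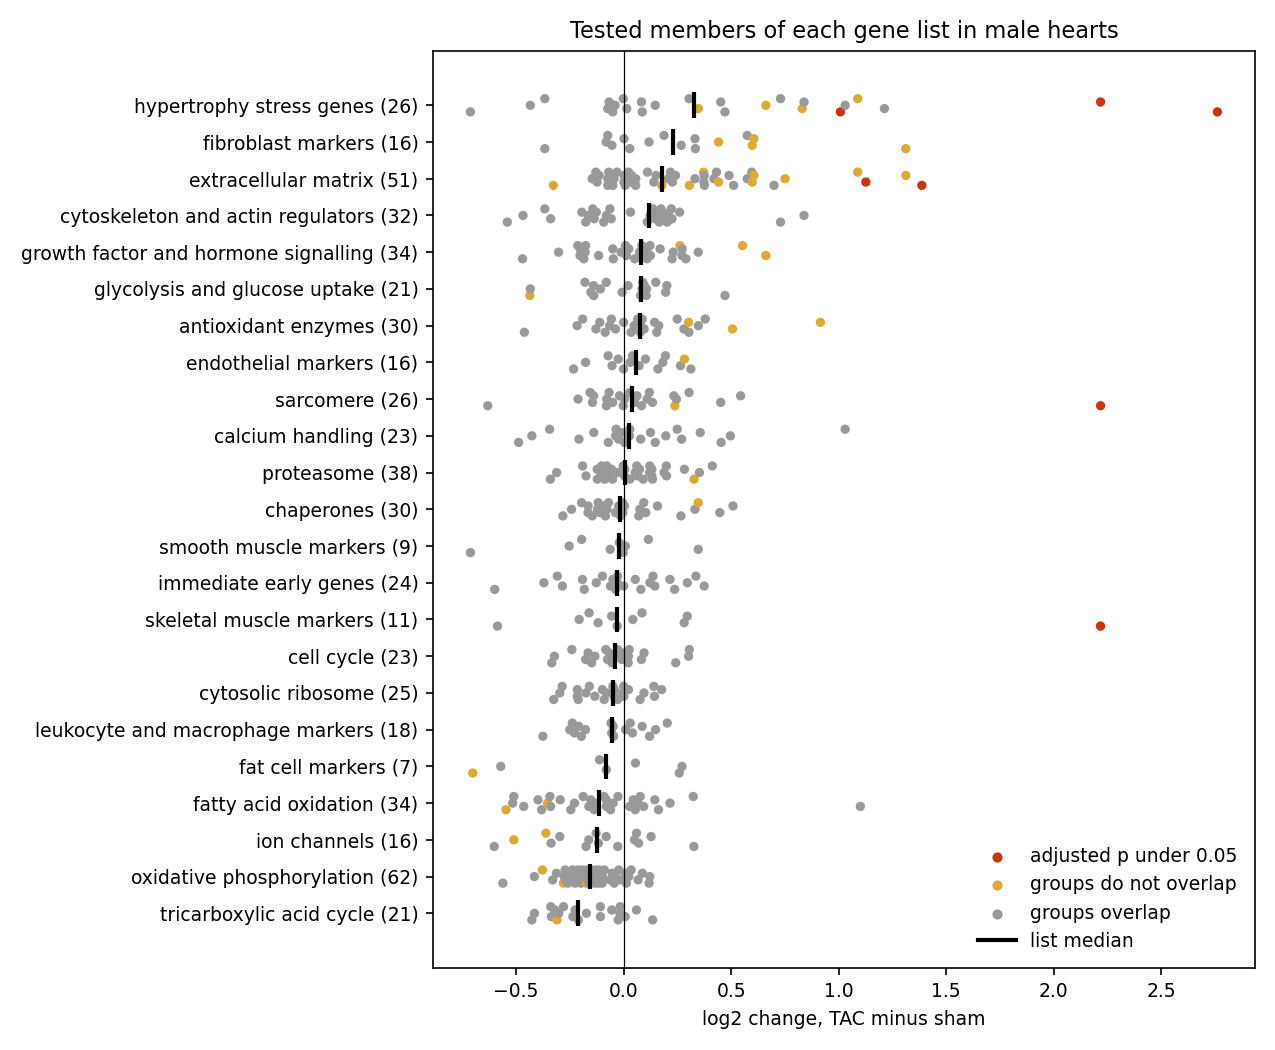
Log2 change (x axis, TAC minus sham) of every tested member of each gene list with at least 5 tested members (y axis, number tested in brackets); black bars are list medians. The stress, fibroblast and matrix lists have the highest medians, 0.33, 0.23 and 0.18, and the oxidative phosphorylation and tricarboxylic acid cycle lists the lowest, -0.16 and -0.21.

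Among 26 tested hypertrophy stress genes, 18 were higher and 8 lower with TAC, and the median log2 change was 0.33. Nppa, Acta1 and Ankrd1 passed. The groups did not overlap in 7 of the 26, all higher, against 2.95% of all tested probe sets in either direction. Xirp1, an actin-binding protein of the intercalated disc, was at 235.6, 388.4 and 335.2 with TAC and 140.3 to 205.8 in sham, a log2 change of 0.83 ± 0.19 (SE, limma adjusted p = 0.227). Hbegf, the heparin-binding growth factor of the EGF family, was at 48.8, 64.1 and 53.7 with TAC and 29.0 to 44.4 in sham, 0.66 ± 0.16 (adjusted p = 0.309). Cryab, a small heat shock protein that binds desmin, had 0.35 ± 0.13 (adjusted p = 0.663), with the lowest TAC array at 118.3 and the highest sham array at 116.8.

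In some probe sets of stress genes TAC 4 stayed with the sham arrays while TAC 5 and TAC 6 stood above them. Rcan1, the feedback inhibitor of calcineurin, was at 60.3, 181.4 and 160.2 with TAC and 41.9 to 94.0 in sham, a log2 change of 1.03 ± 0.34 (SE, limma adjusted p = 0.543). Enah, an actin polymerisation regulator of the Ena/VASP family, was at 22.2, 59.97 and 55.7 with TAC and 13.1 to 35.5 in sham, 0.84 ± 0.29 (adjusted p = 0.591). Fhl1, a LIM-domain protein that binds titin, was at 199.8, 357.0 and 332.6 with TAC and 148.9 to 248.4 in sham, 0.73 ± 0.20 (adjusted p = 0.404). A second probe set of Fhl1 was at 179.5, 364.9 and 424.0 with TAC and 124.0 to 147.2 in sham, 1.15 ± 0.22 (adjusted p = 0.083), so that there TAC 4 was also above every sham array. Over the 120 probe sets in which all TAC arrays were above all sham arrays, TAC 5 was the farthest from sham in 63 and TAC 4 the nearest to sham in 63.

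Nppb, which encodes brain natriuretic peptide, is the ventricular partner of Nppa. It was at 824.5, 1923 and 1882 with TAC and 325.9 to 1228 with a median of 548.8 in sham, a log2 change of 1.21 ± 0.40 (SE, limma adjusted p = 0.543). The groups overlapped: sham 8 and sham 9, at 1101 and 1228, were above TAC 4. The same sham arrays were the highest for Nppa, at 307.3 and 298.4, and for the atrial myosin light chain genes. Myl7 was at 257.2 on sham 8 and 177.9 on sham 9, against 42.2 to 124.4 on the other 4 sham arrays, and at 101.2, 250.1 and 134.0 with TAC, a log2 change of 0.45 ± 0.46 (adjusted p = 0.937). Myl4 was at 269.5 on sham 8 and 192.2 on sham 9, and at 50.3, 255.9 and 88.6 with TAC, a log2 change of -0.07 ± 0.58 (adjusted p = 0.994). Sln, the third atrial marker, was below 20 on all arrays except sham 7. Nppa was highest on TAC 5, where Myl7 and Myl4 were also highest among the TAC arrays. On TAC 4, this Myl4 probe set was below 5 of the 6 sham arrays while Nppa was above all of them. A second tested Myl4 probe set had a log2 change of 0.15 ± 0.57 (adjusted p = 0.986). There TAC 4, at 31.7, was above sham 4 and sham 5, at 30.1 and 19.9, and below the other sham arrays. The part of atrial tissue in the values of Nppa was not tested beyond these.

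**Figure D4:**
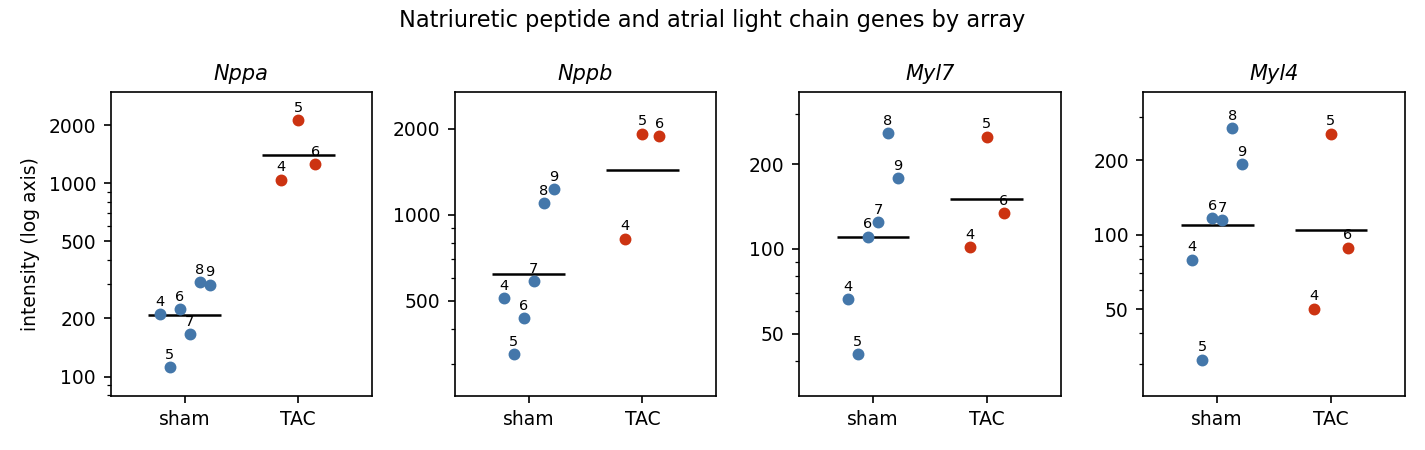
Intensity (y axis, log scale, arbitrary units) of Nppa, Nppb, Myl7 and Myl4 on each male array, labelled with its number; bars are means of log2 values. Nppa separates the groups, with 1045 as the lowest TAC and 307.3 as the highest sham value, while the light chain genes overlap and are high on sham 8, sham 9 and TAC 5.

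The contractile genes as a whole showed no common direction. Of 26 tested sarcomere genes 15 were higher and 11 lower, with a median of 0.04, and Acta1 was the 1 that passed. The probe set with the highest intensity for Myh7, the beta-myosin heavy chain of the fetal heart, had a log2 change of 0.08 ± 0.12 (SE, limma adjusted p = 0.945) at 4261 to 4727 in sham. It is a family probe set, which can also bind Myh6, and a second one, of the same kind, had -0.32 ± 0.16 (adjusted p = 0.823). Cfl2, a muscle cofilin, had 0.54 ± 0.17 (adjusted p = 0.541), and Fhl2, a LIM-domain protein of the sarcomere, had -0.63 ± 0.23 (adjusted p = 0.635). Mybpc3, cardiac myosin-binding protein C, was at 1983 to 2280 with TAC and 1599 to 1969 in sham, 0.24 ± 0.13 (adjusted p = 0.847). Of 11 skeletal muscle markers only Acta1 passed; Ckm, muscle creatine kinase, had -0.59 ± 0.20 (adjusted p = 0.594) in one probe set and -0.07 ± 0.18 (adjusted p = 0.974) in another.

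Genes of mitochondrial fuel use were mostly lower with TAC, by small amounts, and none passed. Of 62 tested genes of oxidative phosphorylation 54 were lower (87.1%, against 53% of all probe sets tested), with a median log2 change of -0.16. Of 21 genes of the tricarboxylic acid cycle 18 were lower, with a median of -0.21, and of 34 genes of fatty acid oxidation 23 were lower, with a median of -0.11. These medians kept their sign under the 5 other scalings, floors and filters tried and without any one array, but single arrays moved their size. The median of oxidative phosphorylation was -0.09 without sham 8 and -0.24 without TAC 6, that of the tricarboxylic acid cycle -0.05 without TAC 4 and -0.30 without TAC 6, and that of fatty acid oxidation -0.02 without TAC 5 and -0.19 without TAC 4. The summed intensity of the 67 oxidative phosphorylation genes on the array, untested ones included, overlapped between the groups. It was 37569 to 44761 with TAC and 40749 to 51361 in sham. The groups did not overlap in 3 of the 62, 1 of the 21 and 2 of the 34, all lower, where 1.34% of all tested probe sets were lower without overlap.

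Echs1, the enoyl-CoA hydratase of beta-oxidation, was at 186.4, 176.9 and 183.1 with TAC and 215.7 to 390.1 in sham, a log2 change of -0.55 ± 0.17 (SE, limma adjusted p = 0.541). Acaa2, the thiolase of the same pathway, had -0.52 ± 0.17 (adjusted p = 0.543), with TAC 5 at 441.6 and sham 7, the lowest sham array, at 660.4, below TAC 4 and TAC 6. Cox7a1, a muscle subunit of cytochrome oxidase, was at 892.8, 814.1 and 849.2 with TAC and 958.4 to 1178 in sham, -0.38 ± 0.13 (adjusted p = 0.543). Idh2, the mitochondrial isocitrate dehydrogenase that yields NADPH, was at 1594, 1086 and 1537 with TAC and 1631 to 1811 in sham, -0.31 ± 0.14 (adjusted p = 0.782). For these enzymes TAC 5 was the lowest array. Pdk4, a kinase that shuts off pyruvate dehydrogenase, was 1 of the 11 genes of the fatty acid list that were higher, with 1.10 ± 0.53 (adjusted p = 0.806). This value rests on TAC 4, which was at 761.1, while the other 8 arrays lay between 61.3 and 170.9.

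Glycolysis had 12 of 21 genes higher and a median of 0.08. Eno3, the muscle enolase, was lower, at 644.6, 720.6 and 713.9 with TAC against 876.3 to 1042 in sham without overlap, a log2 change of -0.44 ± 0.12 (SE, limma adjusted p = 0.404). Pfkp, the platelet isoform of phosphofructokinase, had 0.47 ± 0.20 (adjusted p = 0.751). The median of this list was -0.05 without TAC 6.

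Calcium handling genes had 13 of 23 higher and a median of 0.03, a median that changed sign in 3 of 14 other settings. Atp2a2, the calcium pump of the sarcoplasmic reticulum, had 0.03 ± 0.18 (SE, limma adjusted p = 0.991) and Ryr2, the calcium release channel, had -0.34 ± 0.18 (adjusted p = 0.835). Ion channel genes were lower in 11 of 16, with a median of -0.12. Kcnh2, the channel of the rapid delayed rectifier current, was at 32.5, 21.2 and 38.0 with TAC and 38.8 to 47.8 in sham, -0.51 ± 0.17 (adjusted p = 0.548). Cacna1g, a T-type calcium channel, had -0.36 ± 0.13 (adjusted p = 0.638), also without overlap. Abcc9, the regulatory subunit of an ATP-sensitive potassium channel, had -0.60 ± 0.20 (adjusted p = 0.549), with TAC 6 inside the sham range.

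Among 30 antioxidant genes 21 were higher, with a median of 0.08, and none passed. Gpx3, a secreted glutathione peroxidase, was at 917.5, 952.4 and 658.4 with TAC and 320.6 to 606.5 with a median of 445.4 in sham, a log2 change of 0.91 ± 0.21 (SE, limma adjusted p = 0.234). Gsto1, an omega-class glutathione transferase, was at 156.6, 148.4 and 154.2 with TAC and 88.5 to 125.4 in sham, 0.51 ± 0.14 (adjusted p = 0.404). The groups of both genes did not overlap. Ces1d, a carboxylesterase abundant in fat, was at 23.3, 5.79 and 17.0 with TAC and 25.3 to 64.2 in sham, -0.70 ± 0.24 (adjusted p = 0.594). The Ces1d values on TAC 5 and TAC 6 were below 20. The fat cell marker Adipoq overlapped between the groups, with -0.57 ± 0.29 (adjusted p = 0.823), and Fabp4 was below 20 on all arrays. Of 7 tested fat cell markers 3 were higher and 4 lower, with a median log2 change of -0.08, and none passed. The medians over 30 chaperones, 25 cytosolic ribosomal proteins, 38 proteasome subunits, 23 cell cycle genes and 24 immediate early genes lay between -0.05 and 0.0043, with no member called.

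Wbp2, Ass1, Ctc1 and Ninj1 separated the groups upward without passing. Wbp2, a WW-domain binding coactivator, was at 164.6, 170.1 and 145.8 with TAC and 81.9 to 113.4 in sham, a log2 change of 0.68 ± 0.14 (SE, limma adjusted p = 0.116). Ass1, argininosuccinate synthase, was at 48.3, 59.2 and 63.7 with TAC and 30.4 to 38.3 in sham, 0.70 ± 0.14 (adjusted p = 0.0857). Ctc1, a subunit of a telomere maintenance complex, had 1.02 ± 0.19 (adjusted p = 0.0758), and Ninj1, an adhesion protein of the cell surface, had 0.91 ± 0.19 (adjusted p = 0.122). Ctc1 was below 20 on 3 and Ninj1 on 5 of the 6 sham arrays, so the sizes of both are limited by the floor.

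Downward, 100 probe sets had all TAC arrays below all sham arrays (1.34%), and none passed. Asl, argininosuccinate lyase, the enzyme after Ass1 in the urea cycle, was at 43.2, 33.3 and 70.8 with TAC and 75.7 to 93.9 in sham, a log2 change of -0.85 ± 0.19 (SE, limma adjusted p = 0.24); without TAC 6 the adjusted p was 0.0119. A second probe set of Asl was at 1.29 to 8.98 on the 9 arrays and was not tested. Ass1 and the tested probe set of Asl had changes of opposite sign, and neither gene passed. Pik3ca, the catalytic p110-alpha subunit of PI3-kinase, was at 23.7, 18.3 and 21.9 with TAC and 26.1 to 42.1 in sham, -0.70 ± 0.16 (adjusted p = 0.252). Notch4, a Notch receptor of endothelium, was at 28.4, 26.6 and 25.4 with TAC and 35.9 to 39.1 in sham, -0.48 ± 0.12 (adjusted p = 0.298). Its probe set is a family probe set, and both groups were narrow. The remaining 9 of the 12 lower genes of smallest p were Copg1, Cbx7, Gjb1, Il10ra, Rab4a, Cops2, Chad, 1810021B22Rik and 1110004F10Rik. Their log2 changes ran from -0.77 to -0.48 and their adjusted p from 0.234 to 0.374. A second tested probe set of Copg1 had 0.13 ± 0.16 (adjusted p = 0.941), with overlapping groups.

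An exact permutation test over the 84 ways to choose 3 of 9 arrays gave its smallest two-sided p, 0.0238, for each gene without overlap, the 6 called genes included. Adjusted over the 94 named genes that p became 0.0546, so this test could not pass 0.05 for any of them. Genes were named in part for small p and for groups without overlap in these same data. The value of 0.0546 therefore depends on that choice and lends these genes no support.

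The 6 sham arrays show the spread without TAC. The median SD of log2 values over tested probe sets was 0.23 in sham and 0.20 with TAC. Among genes with a sham mean of over 100, Nppb, Myl7 and Myl4 were among the 12 most variable in sham. Serpina3n, an acute-phase serine protease inhibitor, was at 247.3 on sham 5 against 44.4 to 81.4 on the other 5, and B2m, the light chain of MHC class I, was at 394.2 on sham 8 against 100.7 to 199.6. Single arrays also held isolated values, over 3 log2 units from the median of the other 8 arrays while these spanned under 1.5 units: 18 among 12422 probe sets, of which 5 were on sham 9, 4 on sham 4, 4 on TAC 6 and 3 on TAC 4. On sham 9, Snrpb, a splicing factor subunit, was listed at 0 against 1367 to 1915 elsewhere, and Dstn, the actin-severing protein destrin, was at 2536 against 94.6 to 139.9. None of these was among the calls.

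Whether TAC acted differently in males and females was tested as an interaction over all 15 arrays, with 3 female sham and 3 female TAC arrays. No probe set passed in limma (smallest adjusted p = 1). At an unadjusted p under 0.05, 191 of 7453 passed (2.56%), while that threshold alone would let through 373. For Nppa the female log2 change was 2.90 ± 0.33 (SE), and male minus female was -0.14 (95% interval -1.06 to 0.78). For Acta1 it was 2.00 ± 0.22 in females, with a difference of 0.21 (95% interval -0.39 to 0.82). For Postn, Col8a1 and Ankrd1 the female changes were 1.52, 0.92 and 1.19. These intervals are too wide to show that the responses were equal. The smallest unadjusted p belonged to Wbp2, at 0.68 in males and -0.31 ± 0.15 in females, a difference of 0.99 ± 0.20 (95% interval 0.55 to 1.42). 1110004F10Rik followed with -0.56 in males and 0.23 in females, and Ybx2, a germ cell Y-box protein, with 0.04 in males and -1.01 in females.

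**Figure D5:**
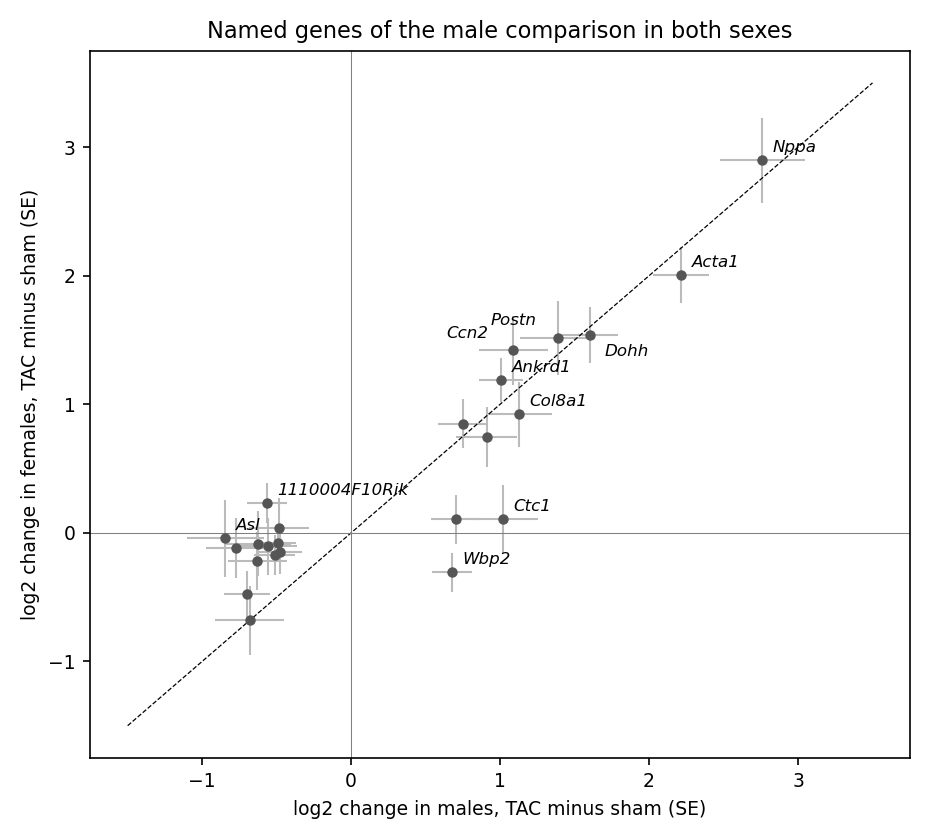
Log2 change in females (y axis) against males (x axis), TAC minus sham, for the 24 genes named for size or p in males, from the fit of all 15 arrays; lines through points are SE and the dashed line marks equal changes. Nppa, Acta1, Dohh, Postn, Ccn2, Ankrd1 and Col8a1 lie close to it, and Wbp2 lies below it, at 0.68 in males and -0.31 in females; these genes were chosen on their male values.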

How the data were processed

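Total RNA of male left ventricles was measured on one-colour oligonucleotide arrays. The deposited values are probe-set intensities; the authors' software, background correction and scaling are unknown (not given in the sources used here), as are array batches. Values were kept as deposited, intensities under 20 were set to 20 and log2 was taken. Of 12422 non-control probe sets, the 60% with the highest mean log2 value over the arrays were tested, 7453 in all. Raising dim values shrinks the changes of dim genes, and it also removes the spread among values under 20. With the lower floor the log2 changes of Dohh and Postn were larger, 2.27 and 1.48, yet neither passed (limma adjusted p = 0.333 and 0.107).

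Male TAC (n = 3) and male sham (n = 6) were compared with R 4.3.3 and limma 3.58.1, by lmFit and eBayes, on these 9 arrays. Benjamini-Hochberg adjustment ran over all tested probe sets, with calls at an adjusted p under 0.05; ± gives the SE unless SD is written. Folds are on the floored scale. The sex difference came from a 4-group model of all 15 arrays. Precision is limited by the array number. The procedure was tested on simulated data.

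Symbols came from the platform annotation, updated by Entrez number through RefSeq's table of GRCm38.p6: 10833 probe sets had 1 symbol, 396 several and 1193 none, and 10817 matched. The brightest tested probe set stood for each gene. Promoters are the RefSeq windows without the bases after the start, 250 bases each.

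Named genes were Nppa, Acta1, Postn and Ankrd1, up to 12 called genes in each direction by size, filled with those of smallest p whose groups did not overlap, up to 3 of smallest p in each of 26 gene lists, defining cell type markers and 3 genes for the sex difference. Nppb, Xirp1, Myh7, Mybpc3, Atp2a2, Ryr2, Pdk4, Col1a2, Col3a1, Lama5, Cryab and the genes of single arrays were added after their values were seen. The members and lists were chosen with earlier results of these data known. Lists are described by counts and medians and were not tested.

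The numbers 4, 5 and 6 occur in both groups. Deviations of same-numbered arrays from their group means correlated at 0.06, -0.08 and 0.01, under the limit of 0.1, so they were not treated as pairs. Alternatives were quantile normalization, median centring, a lower floor, an offset, other filters, trended and robust eBayes, array weights, a replicate block, leaving out each array in turn, all 15 arrays, a minimum fold of 1.5 and a single probe set for each gene.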

Additional observations from a re-analysis of the deposited data

Results flagged for a closer look

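Of 94 named genes, 8 had 1 sham array apart from the other 5 by Dixon's test on the floored log2 scale. Chance flags about 1 in 20 where values are not tied. That rate does not hold where several sham values were set to 20, as in Dohh and Ninj1. TAC, with 3 arrays, was not tested. The value is the gap of the flagged array to the nearest other sham array, as a share of the whole sham range. Postn, one of the called genes, was at 35.3 on sham 8 against 14.0 to 24.3 on the other sham arrays, a share of 0.658, and all TAC arrays were still above it. Dohh, also called, was at 32.7 on sham 4 against 4.01 to 21.4, a share of 0.860, and Ninj1 was at 27.9 on sham 4 against 4.12 to 18.0, a share of 1, since the others were all below the floor. On sham 9, Pfkp was at 36.5 against 13.6 to 23.0 (0.770) and Fhl1 at 248.4 against 148.9 to 172.2 (0.716). Rgs5, a pericyte and smooth muscle regulator of G-protein signalling, was at 15.5 on sham 7 against 27.8 to 33.8 (0.626). Cd74, the invariant chain of MHC class II, was at 301.7 on sham 8 against 124.6 to 173.2 (0.627). Eif2s3x, an X-linked translation initiation factor subunit, was at 55.6 on sham 5 against 71.1 to 77.6 (0.738).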

How the results depend on the processing

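The 8 calls became 2 with a floor at the 10th percentile, 2 without a filter on dim probe sets (1 higher and 1 lower, Notch4), 4 with a stricter filter, 15 with trended and robust eBayes and 3 to 11 when 1 array was left out; fewer or more probe sets tested change the adjustment, and otherwise the cause was not tested. The other settings without a block gave 6 to 12 calls, all higher. With the number in the titles as a replicate block the count was 0 (213 higher and 203 lower at an unadjusted p under 0.05), in a fit where sham 7, 8 and 9 have no TAC partner; of the 3 TAC arrays only TAC 4 correlated best with its own number. Nppa and Acta1 passed without any one array, and in 10 and 11 of 12 other settings. Among these settings, the minimum fold of 1.5 reuses the adjusted p of the main fit and so adds no check of it. Ankrd1 passed in 4 and Col8a1 in 3 of the 9 runs without 1 array. The sex difference had no call under any alternative, the block included. Changes near 0 turned sign without passing: Myl4, -0.07, was 0.16 with array weights, 0.66 with the block and up to 0.46 (lowest -0.71) without 1 array. Without 1 array, Usp9x ran from -0.20 to 0.052, Ddx3x from -0.22 to 0.046 and Ybx2 from -0.072 to 0.19; Ddx3x was 0.016 with the block and Ybx2 -0.059 with array weights. Among 364 list medians under other settings, 8 moved by more than their spread between arrays. With 3 TAC arrays and a median SE of 0.17, small changes such as those of the mitochondrial lists could not pass for single genes.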

Other observations

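The growth factor and hormone signalling list held 22 of 34 tested genes higher, with a median log2 change of 0.08. Il6st, the gp130 signalling receptor of the interleukin-6 family, was at 55.3, 52.8 and 53.1 on TAC arrays 4, 5 and 6 and 22.3 to 47.4 in sham, a log2 change of 0.55 ± 0.20 (SE, limma adjusted p = 0.641). Sox18, an endothelial transcription factor, was at 125.0, 120.5 and 130.6 with TAC and 88.6 to 118.8 in sham, 0.28 ± 0.14 (adjusted p = 0.806). Psma5, a subunit of the proteasome core, was at 128.4, 120.6 and 119.9 with TAC and 76.5 to 115.8 in sham, 0.33 ± 0.15 (adjusted p = 0.772). In these probe sets of the 3 genes the groups did not overlap, as in 2.95% of all tested probe sets, and none of the 3 passed. Second tested probe sets of Il6st and Sox18 had overlapping groups. Their log2 changes were 0.28 ± 0.20 (adjusted p = 0.936) and 0.12 ± 0.21 (adjusted p = 0.958).

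Red blood cell markers, a sign of blood left in the tissue, overlapped between the groups: the summed intensity of 4 tested markers was 1368 to 1825 with TAC and 1075 to 1623 in sham. Acta2, smooth muscle alpha-actin, ran opposite to Acta1, at 19.9, 34.6 and 43.9 with TAC and 31.4 to 70.2 in sham, a log2 change of -0.71 ± 0.27 (SE, limma adjusted p = 0.664), with overlapping groups. Isolated values on TAC arrays, which rest on 1 array each, were those of Polb at 612.9 on TAC 4, against 6.39 to 23.3 on the other 8 arrays, and of Vps26c at 672.6 and Hmces at 1033 on TAC 6, against 9.63 to 17.9 and 77.0 to 118.3.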
